A study of Mus musculus with 6 samples.

Results

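Hepatic fatty acid oxidation, ketone body formation and the targets of the nuclear receptor PPARalpha were described here through 31 genes, taken by symbol from a fixed list out of 23224 genes in the deposited table. All 31 were present and all 31 passed the filter on low counts. Livers came from PKM2 KO mice, in which PKM2, a splice form of pyruvate kinase that acts in glycolysis, was lost in the germline, and from WT mice. Each genotype had 3 independent mice of 35 weeks, of C57BL/6J x 129SvJ stock and without treatment. Polyadenylated RNA came from ground, flash-frozen whole liver. As a germline loss, the knockout was not limited to hepatocytes. The labels give no sex, litter, feeding state or hour of collection. In whole liver, fewer cells of a type and less RNA per cell cannot be told apart.

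As background, long-chain fatty acids are joined to coenzyme A and carried into mitochondria on carnitine, where each turn of beta-oxidation removes an acetyl unit. Peroxisomes shorten very long and branched chains, while cytochrome P450 enzymes of the Cyp4a family oxidise the far (omega) end of the chain. In fasting, the liver turns acetyl-CoA into ketone bodies for other tissues. PPARalpha is switched on by fatty acids, binds DNA together with the retinoid X receptor at paired half-sites, and raises genes at each of these steps. In mouse liver Cyp4a10, Cyp4a14, Acot1, Vnn1 and Ehhadh are among its most responsive targets.

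Libraries held 27727048 to 33756104 expected counts in PKM2 KO livers and 27795400 to 36125711 in WT livers. The targeted gene, listed as Pkm2 with both of its splice forms summed, was at 6.31 to 9.65 CPM in PKM2 KO livers and 15.95 to 26.6 CPM in WT livers, without overlap. Its log2 fold change was -1.47, with an adjusted p of 0.314 in edgeR's quasi-likelihood test, 4.9e-06 in DESeq2 and 0.408 in limma voom. In edgeR's test with single livers left out, the adjusted p was 0.0472 without WT 1 and at least 0.183 in the other fits. CPM are counts per 1000000 after TMM scaling. Hepatocyte markers were high in every library, with Alb at 45660 to 82600 CPM. Y-linked Ddx3y was at 55.2 to 77.2 CPM in all 6 livers, and Xist had at most 5 counts in any. Pancreatic acinar transcripts, summed over 15 markers, were at 34.3 to 9897 CPM in WT livers (3418 in WT 1, 9897 in WT 2 and 34.3 in WT 3), against 35.2 to 64.2 CPM in PKM2 KO livers. The sum of 6 acute phase transcripts was at 6029 CPM in WT 2, while the other 5 livers had 637 to 1187 CPM.

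No gene of the fatty acid oxidation programme passed the threshold between genotypes. Of the 31 genes, 0 had an adjusted p under 0.05 in edgeR's quasi-likelihood test, where 0.0153% of the 13058 tested genes were called higher and 0.00766% lower in PKM2 KO. DESeq2 and limma voom also called 0 of the 31, where they called 0.743% (DESeq2) and 0.0383% (limma voom) of all tested genes. At an unadjusted p under 0.05 the counts were 0 higher and 2 lower, Cyp4a12b and Angptl4, where 2.87% of all tested genes were higher and 4.37% lower (7.24% in either direction). The same 2 genes were the ones whose livers did not overlap between genotypes, 2 of 31 below and 0 above WT, against 6.27% of all genes below and 5.80% above. The median log2 fold change was 0.062 for the 31 genes and -0.012 for all tested genes, with 19 of 31 fold changes positive (47.6% of all tested genes).

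The WT livers were far apart on these genes, and the median position of each PKM2 KO liver lay inside their range. A PKM2 KO liver was the highest or the lowest of all 6 for Acadvl, Ech1, Cyp4a12a, Cyp4a12b, Cyp4a31, Vnn1, Angptl4 and Creb3l3. WT 1 was the highest of all 6 livers for 26 of the 31 genes (83.9%), where it was the highest for 18.4% of all tested genes. The lowest liver was WT 2 for 12 genes and WT 3 for 14, where these shares were 18.3% and 23.4% of all genes. For 14 of 31 genes all 3 PKM2 KO livers lay between WT 1 and the other WT livers, a pattern held by 5.48% of all tested genes. The median position of the 31 genes, as log2 CPM relative to the WT mean, was 0.159, 0.035 and 0.21 in PKM2 KO livers 1 to 3. It was 0.527, -0.222 and -0.232 in WT livers 1 to 3. The 31 genes together took 1.04% to 1.27% of the counts of PKM2 KO livers, against 1.6% in WT 1, 0.783% in WT 2 and 0.876% in WT 3.

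**Figure D1:**
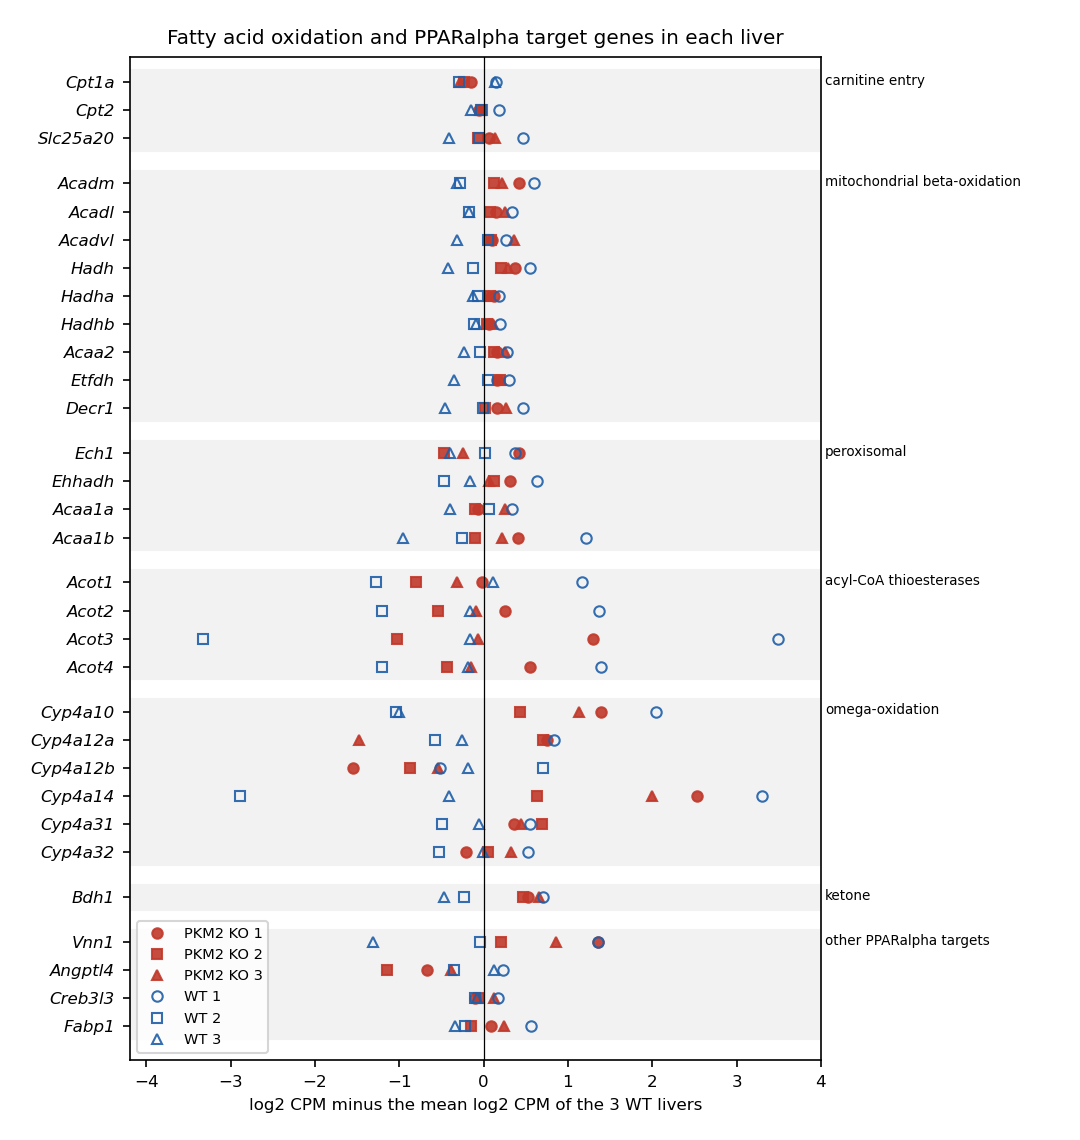
Position of each of the 31 genes in each liver, as log2 CPM minus the mean log2 CPM of the 3 WT livers, grouped by step; filled red symbols are PKM2 KO livers and open blue symbols WT livers. WT 1 (open circles) is the highest liver for 26 of the 31 genes, and for 14 genes all PKM2 KO symbols lie between WT 1 and the other WT livers.

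The SD of log2 CPM over 3 livers was larger in WT than in PKM2 KO for 28 of the 31 genes (90.3%), where this held for 70.3% of all tested genes. The median SD over the 31 genes was 0.171 among PKM2 KO livers and 0.498 among WT livers. Over all tested genes it was 0.144 among PKM2 KO livers and 0.227 among WT livers. The 3 exceptions, with the larger SD in PKM2 KO, were Ech1, Cyp4a12a and Angptl4. The steps differed widely in how much livers varied. The highest liver exceeded the lowest by 1.24-fold (Hadha) to 1.97-fold (Hadh) in mitochondrial beta-oxidation. In the thioesterases this ratio ran from 5.50-fold (Acot1) to 119.7-fold (Acot3), and in the Cyp4a genes from 2.08-fold (Cyp4a32) to 73.8-fold (Cyp4a14).

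**Figure D2:**
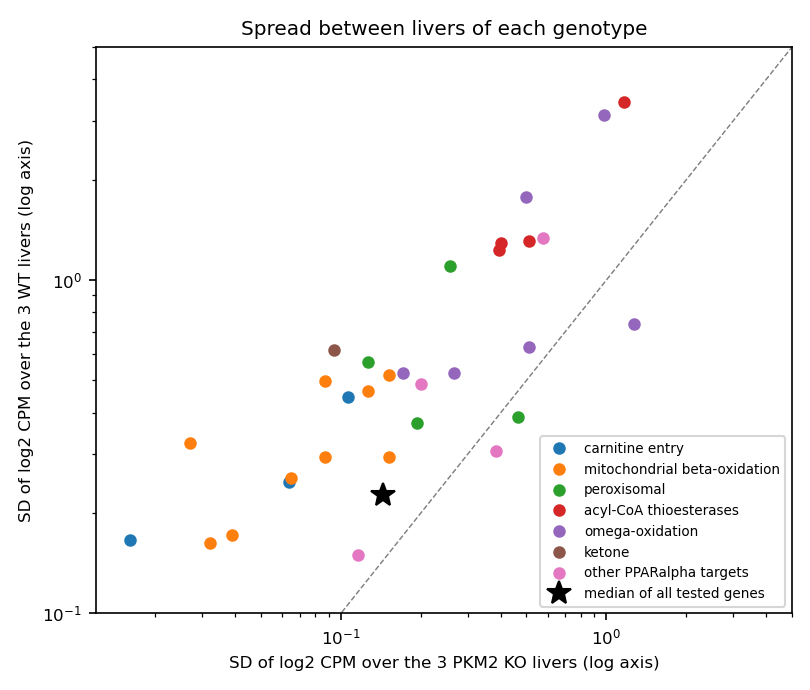
SD of log2 CPM over the 3 PKM2 KO livers (horizontal log axis) and over the 3 WT livers (vertical log axis), with 1 point per gene coloured by step and a star for the medians of all tested genes (0.144 and 0.227). Of the 31 points, 28 lie above the dashed line of equal spread.

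Levels can be set side by side between genes only per length. Per kilobase of the longest coding transcript in GENCODE M21, Fabp1 was highest, with means of 5814 CPM per kilobase in PKM2 KO and 5763 in WT. Next came Acaa1b at 644 in PKM2 KO and 691 in WT, Acaa2 at 615 and 549, and Cyp4a12a at 335 and 299.8, PKM2 KO before WT in each case. The lowest were Cyp4a31 at 2.08 in PKM2 KO and 1.53 in WT, and Acot2 at 2.18 and 3.04 in the same order. The transcript lengths the authors used are not given in the sources used here, so these values are approximate.

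Genes of entry into mitochondria varied by at most 1.85-fold between livers. Cpt1a, the carnitine palmitoyltransferase of the outer mitochondrial membrane and the controlled step of entry, was at 464, 438 and 425 CPM in livers PKM2 KO 1 to 3. It was at 572, 422 and 565 CPM in livers WT 1 to 3. WT 2 lay below all PKM2 KO livers and the other WT livers above them, so the genotypes overlapped (log2 fold change -0.23, SE 0.159, adjusted p = 0.803 in edgeR). Each SE is approximate, taken as the size of the log2 fold change over the root of edgeR's F. Cpt2, the inner-membrane transferase, was at 153 to 156 CPM in PKM2 KO livers and 143 to 179 CPM in WT livers. Its fold change, PKM2 KO over WT, was 0.969, with an approximate 95% interval from 0.794 to 1.18. Slc25a20, the carnitine-acylcarnitine carrier, averaged 109.7 ± 7.99 CPM in PKM2 KO livers and 109.8 ± 34.6 in WT livers (SD, n = 3 each).

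The 9 genes of mitochondrial beta-oxidation all had positive fold changes, between 0.06 and 0.23 on the log2 scale, and none passed. Each was smaller than its SE. Without WT 3 the fold changes shrank to between 0.01 and 0.06 in 8 genes, and Decr1 was at -0.10. They are Acadvl, Acadl and Acadm, the acyl-CoA dehydrogenases for chains of falling length; Hadha and Hadhb, the subunits of the trifunctional protein; Hadh, the dehydrogenase for shorter chains; Acaa2, the thiolase; Etfdh, which passes electrons to ubiquinone; and Decr1, a reductase for unsaturated chains. For 8 of the 9 all PKM2 KO livers lay between WT 1 and the other WT livers. The exception was Acadvl, at 372, 368 and 444 CPM in PKM2 KO livers against 417, 360.1 and 278 CPM in WT livers, where PKM2 KO 3 was the highest.

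Acaa2 was at 917.5, 899.7 and 980.2 CPM in livers PKM2 KO 1 to 3. It was at 995, 799 and 701 CPM in livers WT 1 to 3. WT 1 was the highest liver, with the PKM2 KO livers next (log2 fold change 0.16, SE 0.171, adjusted p = 0.895 in edgeR). Hadh showed the widest range of this step, at 379, 336 and 357 CPM in PKM2 KO livers against 427, 268 and 217 CPM in WT livers. Acadm had 407, 330.3 and 355 CPM in PKM2 KO livers against 461, 251 and 244 CPM in WT livers. Both had WT 1 on top and WT 2 and WT 3 at the bottom, with adjusted p values of 0.895 for Hadh and 0.924 for Acadm in edgeR. Etfdh had the least spread among PKM2 KO livers of this step, at 265 to 275 CPM, against 187 to 292 CPM in WT livers.

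Hadha and Hadhb, which encode the paired subunits of 1 enzyme complex, had almost the same profile. Hadha was at 336, 327 and 322 CPM in livers PKM2 KO 1 to 3 and 352, 296 and 284 CPM in livers WT 1 to 3. Hadhb was at 199.8, 197 and 207 CPM in livers PKM2 KO 1 to 3 and 220.1, 178 and 181 CPM in livers WT 1 to 3. Both genotypes overlapped in each gene, since WT 1 was the highest liver in both. The genes lie head to head on chromosome 5, Hadha on the minus and Hadhb on the plus strand, with 273 bases between their starts as RefSeq annotates them. Their RefSeq promoter windows, running from 250 bases before to 50 bases after the start, therefore share 228 bases. GENCODE M21 places the start of Hadha at 30155162 and that of Hadhb at 30155248, so by that annotation part of the shared stretch lies inside Hadha. The Hadhb window in RefSeq of GRCm38.p6, chr5:30155003-30155302 on the plus strand, is shown because 1 stretch of DNA lies before both RefSeq starts. The shared part is in capitals.
Hadhb: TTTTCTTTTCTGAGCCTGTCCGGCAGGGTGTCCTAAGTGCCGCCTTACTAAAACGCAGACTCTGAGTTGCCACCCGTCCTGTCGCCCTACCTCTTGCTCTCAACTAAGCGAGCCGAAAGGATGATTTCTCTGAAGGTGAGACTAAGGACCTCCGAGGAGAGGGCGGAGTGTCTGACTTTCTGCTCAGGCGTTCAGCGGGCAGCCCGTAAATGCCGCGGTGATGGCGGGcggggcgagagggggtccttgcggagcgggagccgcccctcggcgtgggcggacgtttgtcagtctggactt

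Of the 4 peroxisomal genes, Acaa1b and Ehhadh had all PKM2 KO livers between WT 1 and the other WT livers, and Acaa1a and Ech1 did not. Acaa1b, a ketoacyl-CoA thiolase of the last peroxisomal step, was at 1264, 888 and 1113 CPM in livers PKM2 KO 1 to 3. It was at 2212, 796 and 494 CPM in livers WT 1 to 3, so 2 WT livers lay below and 1 above all PKM2 KO livers (log2 fold change -0.10, SE 0.506, adjusted p = 0.981 in edgeR). Ehhadh, the bifunctional enzyme of the peroxisomal pathway, had 335, 295.5 and 282.5 CPM in PKM2 KO livers against 419, 195 and 243 CPM in WT livers. Its genotypes overlapped in the same way (log2 fold change 0.09, SE 0.274, adjusted p = 0.967 in edgeR). Acaa1a, the close copy of Acaa1b, averaged 206.3 ± 28.5 CPM in PKM2 KO livers and 205.7 ± 51 in WT livers (SD, n = 3 each). Ech1, an isomerase for unsaturated chains found in peroxisomes and mitochondria, had its highest value in PKM2 KO 1, at 310.2 CPM, and its lowest in PKM2 KO 2, at 167 CPM. In WT livers Ech1 was at 176 to 300.7 CPM.

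Acaa1a and Acaa1b share 96.5% of their coding bases, so reads can be divided between them. Summed, they were at 1457, 1075 and 1352 CPM in PKM2 KO livers and 2467, 1007 and 646 CPM in WT livers (log2 fold change -0.08, adjusted p = 0.981 in edgeR). The sum kept WT 1 on top and WT 2 and WT 3 at the bottom.

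The acyl-CoA thioesterases release free fatty acids from coenzyme A. Acot1 works in the cytosol, Acot2 in mitochondria, and Acot3 and Acot4 in peroxisomes. All 4 had WT 1 as the highest and WT 2 as the lowest liver. Acot3 was at 31.6, 6.28 and 12.25 CPM in livers PKM2 KO 1 to 3. In livers WT 1 to 3 it was at 145.4, 1.21 and 11.45 CPM, a 119.7-fold range among WT animals (log2 fold change -1.66, SE 1.37, adjusted p = 0.847 in edgeR). Its rounded counts ran from 39 to 4067, so the range was not set by single reads. Acot1 had 26.1, 15.2 and 21.2 CPM in PKM2 KO livers against 59.8, 10.9 and 28.6 CPM in WT livers (log2 fold change -0.66, SE 0.535, adjusted p = 0.839 in edgeR). Acot2 averaged 4.795 ± 1.31 CPM in PKM2 KO and 6.68 ± 5.86 in WT, and Acot4 30.1 ± 11.2 CPM in PKM2 KO and 38.3 ± 33.9 in WT (SD, n = 3 each).

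The 4 fold changes were negative, and their sign depended on the WT livers used. Without WT 1 all 4 were positive, with Acot1 at 0.08 (SE 0.4128) and Acot3 at 1.39 (SE 0.9728). With WT 3 as the only WT liver Acot1 stayed at -0.45, while Acot2, Acot3 and Acot4 were at 0.08, 0.55 and 0.24. With limma voom on all 6 livers Acot3 was at 0.14. Summed over copies, Acot1 and Acot2 were at 32.2, 18.7 and 26.0 CPM in PKM2 KO livers and 73.1, 13.05 and 33.1 CPM in WT livers. The sum of Acot3 and Acot4 had 74.2, 27.7 and 38.5 CPM in PKM2 KO livers and 222.2, 13.8 and 36.9 CPM in WT livers. Neither sum passed (adjusted p = 0.853 and 0.878 in edgeR).

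The coding parts of Acot1 and Acot2 are identical at 95.6% of aligned bases, and 43.6% of the 50-base stretches of Acot1 occur unchanged in Acot2. The most different 60 coding bases in GENCODE M21 (chromosome 12, bases 823 to 882 of Acot1 and 946 to 1005 of Acot2) are shown as the kind of site that tells reads of the copies apart, with the 13 differing bases in capitals.
Acot1: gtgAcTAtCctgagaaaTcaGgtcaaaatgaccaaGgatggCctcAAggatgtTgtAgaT
Acot2: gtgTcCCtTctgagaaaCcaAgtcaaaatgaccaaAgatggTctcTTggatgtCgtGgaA

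Omega-oxidation genes also differed widely between livers. Cyp4a10, a fatty acid omega-hydroxylase and textbook PPARalpha target, was at 470, 240.5 and 391.7 CPM in livers PKM2 KO 1 to 3. It was at 739.6, 86.8 and 89.2 CPM in livers WT 1 to 3. WT 1 lay above and WT 2 and WT 3 lay well below all PKM2 KO livers (log2 fold change 0.27, SE 0.809, adjusted p = 0.967 in edgeR). Cyp4a14, its equally inducible relative, had 306, 82.3 and 212 CPM in PKM2 KO livers against 521.5, 7.07 and 39.7 CPM in WT livers. All 6 livers stood in the same order as for Cyp4a10 (log2 fold change 0.08, SE 1.26, adjusted p = 0.991 in edgeR). The approximate 95% interval of the Cyp4a14 fold change ran from 0.137 to 8.13, so neither a large increase nor a large decrease could be told from no difference with these livers.

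Cyp4a31 and Cyp4a32, less studied members of the cluster, were low. Cyp4a31 was at 4.72 to 5.94 CPM in PKM2 KO livers against 2.58 to 5.4 CPM in WT livers, and Cyp4a32 at 18.4 to 26.7 CPM in PKM2 KO livers against 14.8 to 30.7 CPM in WT livers. Their coding parts match that of Cyp4a10 at 96.6% (Cyp4a31) and 97.2% (Cyp4a32) of bases. The sum of these 3 genes had 493, 268.5 and 423 CPM in PKM2 KO livers and 776, 104.2 and 114 CPM in WT livers (log2 fold change 0.25, SE 0.75, adjusted p = 0.967 in edgeR). Cyp4a10 made up 78.3% to 95.3% of it.

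Cyp4a12a, an omega-hydroxylase that in mouse liver depends on androgens, did not follow this order in PKM2 KO livers. It was at 1115, 1082 and 238 CPM in livers PKM2 KO 1 to 3 and 1181, 444 and 553 CPM in livers WT 1 to 3. PKM2 KO 3 was the lowest of all 6 livers (log2 fold change 0.16, SE 0.594, adjusted p = 0.974 in edgeR). Cyp4a12b, its near copy, ran the other way, at 37.6, 59.95 and 75.2 CPM in PKM2 KO livers against 76.6, 178.8 and 96.7 CPM in WT livers. Every PKM2 KO liver was below every WT liver, with PKM2 KO 3 and WT 1 almost level. The log2 fold change was -1.03 (SE 0.361) with an unadjusted p of 0.0234 and an adjusted p of 0.637 in edgeR, so the difference did not pass. It was -0.59 without WT 2 and -1.27 without PKM2 KO 3.

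The coding parts of Cyp4a12a and Cyp4a12b differ at 23 of 1524 bases, and 54.8% of the 50-base stretches of each occur in the other. Cyp4a12b took 3.3%, 5.2% and 24% of the pair in livers PKM2 KO 1 to 3, and 6.1%, 28.7% and 14.9% in livers WT 1 to 3. The summed pair had 1152, 1142 and 313 CPM in PKM2 KO livers and 1257, 623.3 and 649.7 CPM in WT livers, with overlap (log2 fold change 0.04, SE 0.502, adjusted p = 0.989 in edgeR). Cyp4a12a made up 71.3% to 96.7% of this sum, so the sum cannot show whether Cyp4a12b differed. The most different 60 coding bases in GENCODE M21 (chromosome 4, bases 624 to 683 of both) are shown because the value of Cyp4a12b rests on such sites, with the 4 differing bases in capitals.
Cyp4a12a: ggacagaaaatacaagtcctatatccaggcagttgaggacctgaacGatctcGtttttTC
Cyp4a12b: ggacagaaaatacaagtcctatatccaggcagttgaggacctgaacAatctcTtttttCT

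Summed, the 6 Cyp4a genes were at 1951, 1493 and 948 CPM in PKM2 KO livers and 2555, 734.5 and 803.5 CPM in WT livers (log2 fold change 0.10, SE 0.512, adjusted p = 0.981 in edgeR). The makeup of this sum also differed between livers. Cyp4a14 was 5.5% to 22.3% of it in PKM2 KO livers, against 20.4% in WT 1, 1% in WT 2 and 4.9% in WT 3.

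**Figure D3:**
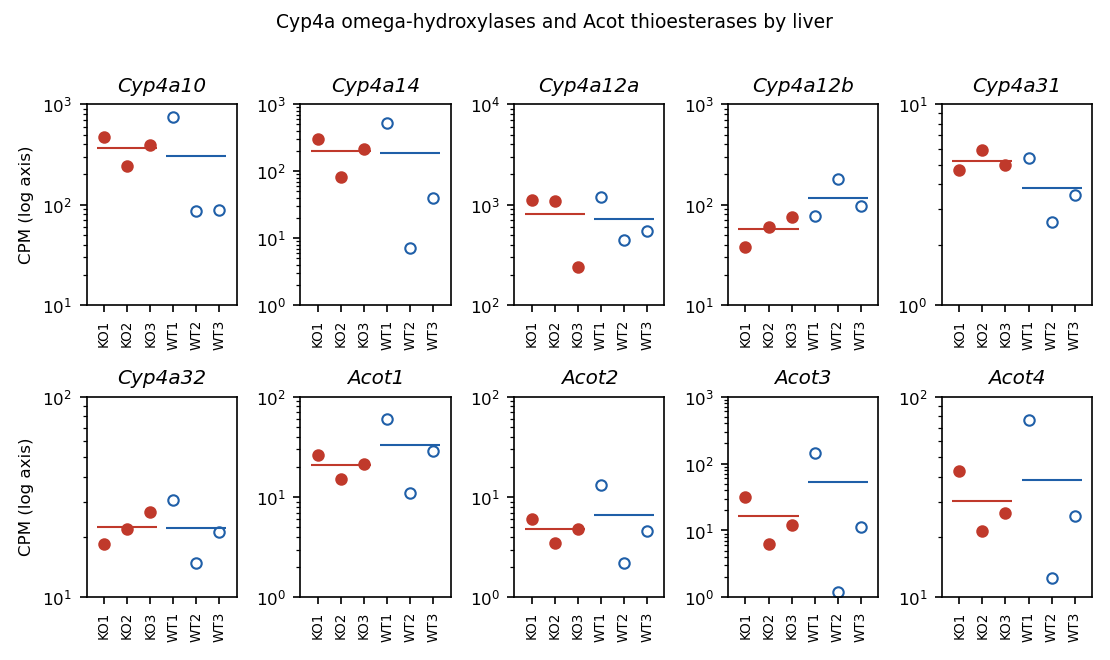
CPM (log axis) of the 6 Cyp4a omega-hydroxylases and 4 Acot thioesterases in each liver; filled red points are PKM2 KO livers, open blue points WT livers, and horizontal lines the mean CPM of each genotype. Cyp4a14 is at 82.3 to 306 CPM in PKM2 KO and at 7.07 to 521.5 CPM in WT, and in Cyp4a12b all PKM2 KO points lie below all WT points.

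For ketone bodies the list held Bdh1, the dehydrogenase that interconverts acetoacetate and beta-hydroxybutyrate. Bdh1 was at 300.7, 287.6 and 327.1 CPM in livers PKM2 KO 1 to 3. It was at 338, 178 and 150.1 CPM in livers WT 1 to 3. The PKM2 KO livers lay close together, just under WT 1 and well above WT 2 and WT 3 (log2 fold change 0.46, SE 0.293, adjusted p = 0.79 in edgeR). Without WT 1 the log2 fold change was 0.90 (SE 0.127, adjusted p = 0.0561 in edgeR). WT 1 was left out for its high values on these same genes, so that fit supports no difference between genotypes. Bdh1 passed in 1 of 17 alternative analyses, the one with WT 3 as the only WT liver (log2 fold change 1.03, adjusted p = 0.0462), which holds no spread between WT mice.

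The remaining PPARalpha targets went different ways. Angptl4, a secreted inhibitor of lipoprotein lipase, was at 43.1, 30.97 and 52.5 CPM in livers PKM2 KO 1 to 3. It was at 80.3, 53.8 and 74.4 CPM in livers WT 1 to 3. The highest PKM2 KO liver was just under the lowest WT liver, so the genotypes did not overlap. Means were 42.2 ± 10.8 CPM in PKM2 KO livers and 69.5 ± 13.9 in WT livers (SD, n = 3 each), with a log2 fold change of -0.72 (SE 0.225). The unadjusted p was 0.0138 and the adjusted p 0.583 in edgeR, so the difference did not pass. Over the 17 alternatives the fold change stayed negative, from -0.91 to -0.54, with adjusted p values of 0.149 to 1.

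Vnn1, a pantetheinase that recycles the vitamin part of coenzyme A, had 66.4, 29.8 and 47 CPM in PKM2 KO livers against 66.4, 25.1 and 10.4 CPM in WT livers. PKM2 KO 1 and WT 1 were level at the top and WT 3 was lowest (log2 fold change 0.49, SE 0.609, adjusted p = 0.913 in edgeR). Creb3l3, a liver transcription factor that works with PPARalpha in fasting, had the smallest range of the whole list, at 319 to 372 CPM in PKM2 KO livers and 320.4 to 386 CPM in WT livers. Its fold change of 0.989 had an approximate 95% interval from 0.792 to 1.24. Fabp1, the main fatty acid carrier of the hepatocyte cytosol, had 3265, 2752 and 3628 CPM in PKM2 KO livers and 4506, 2627 and 2427 CPM in WT livers (log2 fold change 0.01, SE 0.277, adjusted p = 0.993 in edgeR). WT 1 was again the highest and WT 3 the lowest.

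The response element of PPARalpha pairs half-sites with 1 base between them, searched here as AGGNCA and AGGNCA with any base between, on both strands. RefSeq promoter windows of GRCm38.p6 were found for 22 of the 31 genes (25 windows of 300 bases). The motif was in 1 of these, that of Fabp1, and in 0.381% of all 32851 windows. The Fabp1 window, chr6:71199629-71199928 on the plus strand, is shown for this element, which lies on the opposite strand 67 to 55 bases before the annotated start and is in capitals. Other windows were not matched by these letters, and elements outside the windows were not searched. Genes without a window, and so not searched, were Acaa2, Decr1, Cyp4a10, Cyp4a12a, Cyp4a12b, Cyp4a14, Cyp4a31, Vnn1 and Angptl4.
Fabp1: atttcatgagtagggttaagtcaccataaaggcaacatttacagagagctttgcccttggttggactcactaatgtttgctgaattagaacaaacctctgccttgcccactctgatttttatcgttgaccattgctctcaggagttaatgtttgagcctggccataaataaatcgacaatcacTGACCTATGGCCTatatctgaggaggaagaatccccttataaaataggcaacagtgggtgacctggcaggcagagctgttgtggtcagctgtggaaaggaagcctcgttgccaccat

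The comparison was also read without WT 1. This liver was left out because of its high values on these same genes, so the counts without it are a description of the remaining livers and support no difference between genotypes. The shares over all genes are given for scale only. In that fit 28 of 31 fold changes were positive (90.3%, against 48.8% of all tested genes), with a median log2 of 0.339. Without WT 1, 0 of 31 passed in edgeR (51 genes, 0.382%, passed over the whole table), and the lowest adjusted p was 0.0561. An unadjusted p under 0.05 was reached by 11 higher genes (35.5%, against 7.82% of all genes) and 2 lower (8.40% of all genes). The 11 were Acadm, Acadl, Hadh, Acaa2, Ehhadh, Acaa1b, Cyp4a10, Cyp4a14, Cyp4a31, Bdh1 and Vnn1. All PKM2 KO livers lay above both WT 2 and WT 3 for 17 of the 31 genes (54.8%, against 17.0% of all genes), and below both for 2 (17.6% of all genes). Fold changes without WT 1 were 4.20 for Cyp4a10, 8.55 for Cyp4a14, 2.71 for Vnn1, 1.87 for Bdh1 and 1.48 for Hadh.

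Leaving out WT 2 or WT 3 instead gave 13 and 12 positive fold changes of 31, so the direction of the list depended on which WT liver was left out. WT 2 and WT 3, the livers low in these genes, had the acute phase gene Saa1 at 2323 and 355.5 CPM, against 27.5 to 54.2 CPM in PKM2 KO livers and 25.7 CPM in WT 1. Orm1 and Orm2 of the same list were also highest in WT 2, at 1299 and 123.8 CPM, but WT 3 did not stand out on them. Orm1 was at 545.6 to 819.9 CPM in PKM2 KO livers, 579.7 CPM in WT 3 and 642.4 CPM in WT 1, and Orm2 at 23.4 to 36.9 CPM in PKM2 KO livers, 19.63 CPM in WT 3 and 19.56 CPM in WT 1. The sum of 6 acute phase genes was 6029, 1187 and 708 CPM in WT 2, WT 3 and WT 1. The part of acute phase state, pancreatic transcripts, feeding and hour of collection in the differences between WT livers was not tested. Summed over the genes of each list, time-of-day transcripts were at 564.4 to 583.4 CPM in PKM2 KO livers, and at 614.2, 449 and 597.3 CPM in livers WT 1 to 3. Feeding and fasting transcripts summed to 7280 to 12130 CPM in PKM2 KO livers, and to 20990, 7859 and 14820 CPM in livers WT 1 to 3. Single genes of these lists went different ways among WT livers. Tef was the largest part of the time-of-day sum, at 161.9 to 228.9 CPM, so the sum can hide other genes. Per1 was at 40.2, 5.79 and 33.3 CPM in livers WT 1 to 3, against 21.6 to 32.4 CPM in PKM2 KO livers. Nr1d1 was at 47.3, 48.7 and 86.9 CPM in livers WT 1 to 3, against 72.9 to 120 CPM in PKM2 KO livers. Nr1d2 varied less, at 92.5 to 106.3 CPM in all 6 livers. The gluconeogenic gene G6pc was at 387, 49.6 and 214.7 CPM in livers WT 1 to 3, and Pck1 of the same pathway at 2247, 1813 and 2438 CPM. Cidea, an adipocyte and lipid droplet gene, was at 7.58 CPM in WT 1 and at most 0.345 CPM in the other 5 livers, while Adipoq was at 0 to 1.68 CPM in all 6.

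**Figure D4:**
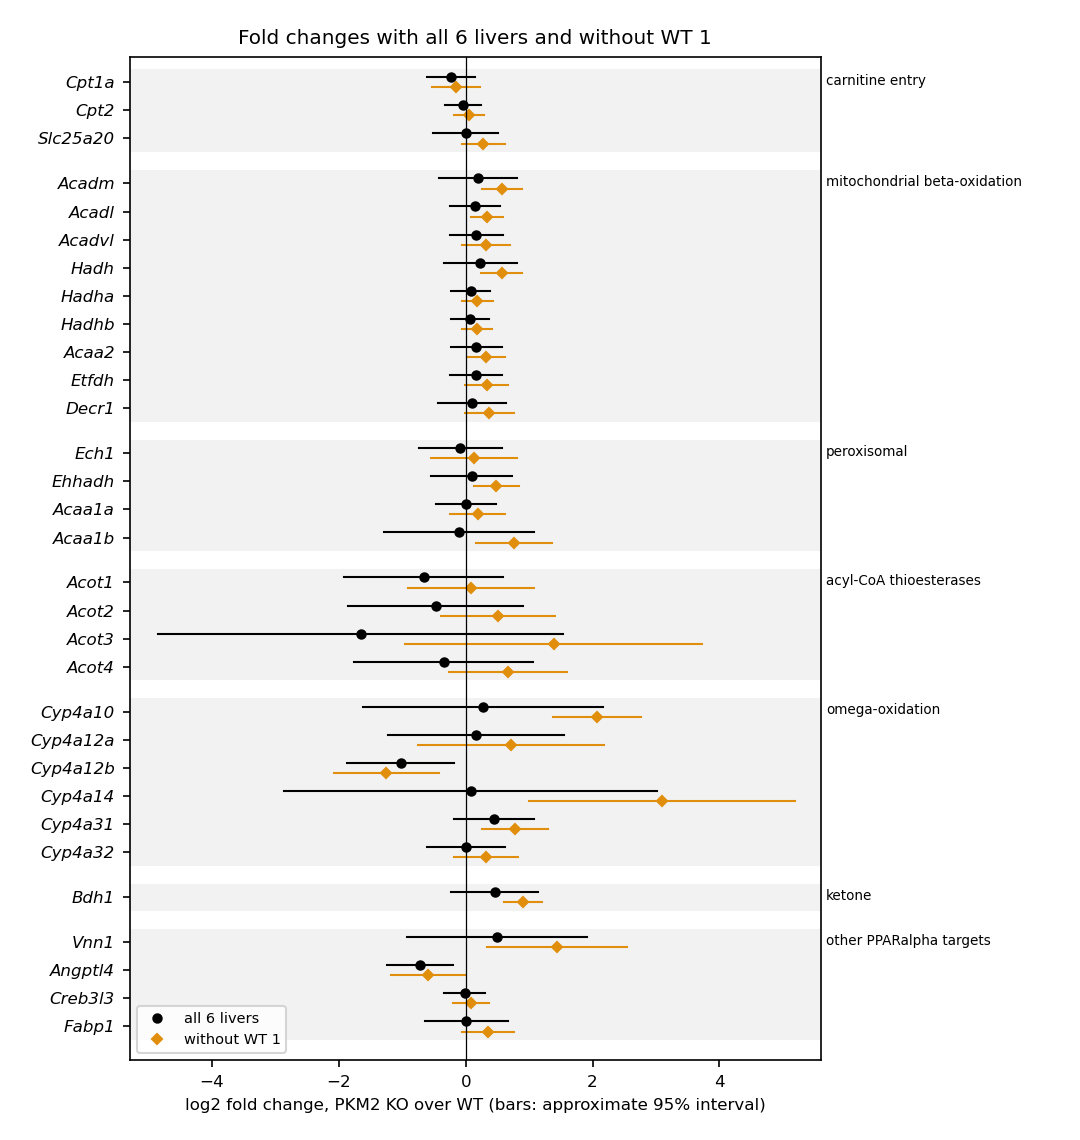
Log2 fold change (PKM2 KO over WT) of each of the 31 genes with its approximate 95% interval, with all 6 livers (black circles) and without WT 1 (orange diamonds). With all 6 livers 19 of 31 estimates lie above 0, and without WT 1 28 of 31 do.

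Other genes of these pathways were read from a list of 95, of which 88 were tested. None passed in edgeR's test, 47 had positive and 41 negative fold changes, and the median log2 fold change was 0.023. DESeq2 called Ucp2 (adjusted p = 0.0232), where it called 0.743% of all tested genes in either direction. At an unadjusted p under 0.05, 0 were higher and 9 lower (10.2%, against 4.37% of all genes). All PKM2 KO livers lay below all WT livers for 9 genes (10.2%, against 6.27% of all genes) and above them for 1 (1.14%, against 5.80% of all genes).

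Ppara itself, which encodes the receptor, had 373, 330.4 and 296 CPM in PKM2 KO livers against 459, 373 and 408 CPM in WT livers. PKM2 KO 1 and WT 2 were almost level, and the genotypes did not overlap (log2 fold change -0.31, SE 0.148, adjusted p = 0.724 in edgeR). Ucp2, a mitochondrial carrier of the inner membrane, had 24.8, 21.9 and 22.9 CPM in PKM2 KO livers against 35.4, 39.9 and 30.6 CPM in WT livers. Its log2 fold change was -0.61 (SE 0.125, unadjusted p = 0.00157, adjusted p = 0.501 in edgeR). Plin2, the lipid droplet coat protein and a PPARalpha target, had 363, 325 and 412 CPM in PKM2 KO livers against 548.5, 477.3 and 520.9 CPM in WT livers (log2 fold change -0.49, SE 0.144, adjusted p = 0.566 in edgeR). In both genes every PKM2 KO liver was below every WT liver. The summed level of the 5 macrophage markers that were tested was 210.5 to 236.2 CPM in PKM2 KO livers and 255.3 to 280.9 CPM in WT livers. C1qa, Cd68 and Lyz2 lay below WT without overlap, as 6.27% of all tested genes did. Their log2 fold changes were -0.59, -0.53 and -0.48. Clec4f and Cd5l overlapped, at -0.12 and -0.05. None of the 5 passed in edgeR (lowest adjusted p = 0.466), and their part in the lower values of Ucp2, Plin2 and Angptl4 was not tested.

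On the higher side, Crot, the peroxisomal carnitine octanoyltransferase, had 491, 474 and 506 CPM in PKM2 KO livers against 384.5, 458 and 396 CPM in WT livers, without overlap (log2 fold change 0.25, SE 0.132, adjusted p = 0.753 in edgeR).

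**Figure D5:**
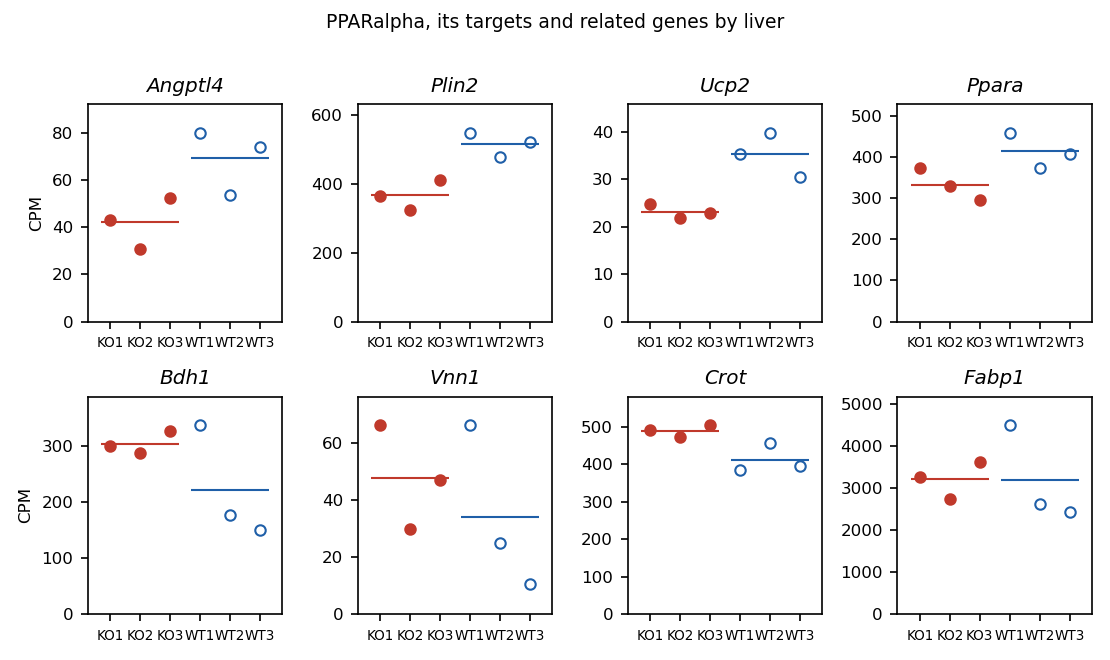
CPM of Angptl4, Plin2, Ucp2, Ppara, Bdh1, Vnn1, Crot and Fabp1 in each liver, with filled red points for PKM2 KO, open blue points for WT and lines for the mean of each genotype; each vertical axis starts at 0. In Angptl4, Plin2, Ucp2 and Ppara all PKM2 KO points lie below all WT points, in Crot all lie above, and none of these differences passed the threshold in edgeR.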

How the data were processed

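Polyadenylated RNA of 6 whole livers was sequenced from TruSeq libraries, per the labels' protocols. The deposited table holds expected counts per gene, the estimates by which RSEM divides reads among matching transcripts. Bowtie 1.0.1, RSEM 1.2.12 and the build mm9 are named, per the submitters' processing notes. Gene annotation and strandedness are not given in the sources used here. Levels of copies that share long stretches (Cyp4a10 with Cyp4a31 and Cyp4a32, Cyp4a12a with Cyp4a12b, Acot1 with Acot2, Acaa1a with Acaa1b) are therefore uncertain. Cyp4a14 shared 0% of its 50-base coding stretches with any other Cyp4a gene of the list. Acot3 shared 9.7% of its own with Acot4, at 74.6% identity. It was closer to Acot1, with 13.7% of its stretches shared at 84% identity, and shared 2.49% with Acot2 at 84.5% identity. No sum of Acot3 with Acot1 was fitted. Sums were also fitted for these groups, for Acot3 with Acot4 and for all 6 Cyp4a genes.

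Expected counts were rounded and analysed in R 4.3.3 with edgeR 4.0.16 (filterByExpr defaults, 13058 genes kept, TMM, glmQLFit and glmQLFTest, genotype as the only term, Benjamini-Hochberg over all genes, threshold 0.05). Approximate 95% intervals use the SE and edgeR's degrees of freedom. DESeq2 1.42.0 and limma voom (limma 3.58.1) were alternatives. Log2 positions used a prior count of 2. The most similar pair of libraries differed by a chi-square of 38.7 per gene, so none was a repeat. The main edgeR fit was tested on simulated data. Of planted log2 changes of 1 and 2, 50% and 90.7% were called, with 8 false calls. The simulated spread followed the trend over all genes, not the wider spread of genes such as Acot3 and Cyp4a14.

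The genes, lists and tests were chosen with earlier results of these data known. Values per liver are given for the most abundant gene and the gene with the smallest p of each step, genes without overlap, Cyp4a10, Cyp4a14, Vnn1, Angptl4, Cpt1a, Ehhadh, Bdh1 and copy sums. From the pathway list they are given for Ppara and the 2 genes of smallest p per direction, of which 1 is not reported here. Others named with values (Acadvl, Hadh, Acadm, Etfdh, Hadha and Hadhb among them) were picked after their values were seen. Sequences came from RefSeq of GRCm38.p6 and GENCODE M21, a different build from the counts. Coding parts were aligned with Biopython 1.88 and plots drawn with matplotlib 3.10.9.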

Additional observations from a re-analysis of the deposited data

How the results depend on the processing

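Of 31 genes, 0 passed under 16 of 17 alternatives, and 1 (Bdh1) passed with WT 3 as the only WT liver, a fit that takes its spread from PKM2 KO livers. The count over all genes was 3, and it was 5 without a filter on low counts, 5 with limma voom, 97 with DESeq2 and 163 with WT 3 alone. It ran from 3 to 51 when single livers were left out (51 without WT 1 and 51 without WT 3). The median log2 fold change of the 31 genes ran from -0.097 (without WT 3) to 0.416 (WT 3 alone). A change of sign between analyses was counted only where the fold change from all 6 livers exceeded its SE. By that rule Acot3 changed sign with limma voom (0.14), with WT 3 alone (0.55) and in leave-one-out fits, which ran from -2.5 to 1.39. The leave-one-out range was -1.08 to 0.08 for Acot1, -1.05 to 0.15 for the sum of Acot1 and Acot2, and -1.46 to 0.89 for the sum of Acot3 and Acot4. That last sum was 0.35 with WT 3 alone. In the leave-one-out fits these positive values came without WT 1, where Acot1 was within its SE of 0. The replicate numbers do not pair the samples (correlations of same-numbered deviations -0.051, 0.027 and -0.092). With a replicate block the count over all genes was 7 and 0 of the 31 genes passed. The lowest rounded count of any of the 31 genes in a liver was 39. The approximate 95% interval of Cyp4a14 ran from -2.87 to 3.02 on the log2 scale.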
